A study of Mus musculus with 18 samples.

Results

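Induced pluripotent stem cells (iPSCs) are body cells returned to a state like that of embryonic stem cells. OE + EpEX iPSCs, made from mouse embryonic fibroblasts (MEFs) with Oct4 and the adhesion molecule EpCAM together with soluble EpEX, the extracellular domain of EpCAM, were compared with OSKM iPSCs, made with Oct4, Sox2, Klf4 and c-Myc. The comparison used 8 of the 18 arrays of the series, 4 clones of each kind, chosen by their labels alone, and 45037 probe sets, all those on the array except 64 controls. Both kinds of clone came from E13.5 MEFs that carried the rtTA activator at the ROSA26 locus and the POU5f1 tm2Jae allele, a GFP reporter at Oct4. Both received PiggyBac plasmids, 2.5 μg of helper and 2.5 μg of factor plasmid, were plated on feeder cells in medium with LIF, and were given doxycycline at 1.5 μg/mL for 21 days to switch the factors on. Each array was 1 clone, so the spread within a group is that between 4 clones, and the labels do not tie clones to separate embryos or transfections. The OE + EpEX group received both more (EpEX and EpCAM) and less (no Sox2, Klf4 or c-Myc) than the OSKM group, so the parts played by EpEX, EpCAM and the missing factors cannot be told apart. Whether doxycycline was still present when RNA was taken is not given in the sources used here.

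Fibroblasts that turn into iPSCs shut down genes for the extracellular matrix, growth factors and mesenchymal identity, and switch on a network of transcription factors led by Oct4, Sox2 and Nanog, along with epithelial adhesion genes such as Epcam and Cdh1. Silencing of the fibroblast genes can remain incomplete in single clones, which is why clones from different recipes are set against each other. EpCAM is a surface protein of epithelia and of pluripotent cells that is cut to release EpEX.

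Values are log2 signals on Affymetrix mouse expression arrays, each relative to the median of the same probe set over all 18 arrays. They give no absolute level and do not show whether a transcript was detected. A gene symbol was at hand for 904 probe sets (687 genes), 2.01% of those analysed, all from 2 lists in which the authors kept probe sets that differed from the MEF mean by 10-fold or more in each of the 15 other arrays. A fibroblast gene that was less than 10-fold down in even 1 clone is therefore missing from the named genes. The lists hold 477 probe sets higher than in MEFs, here called pluripotent-high, and 471 lower than in MEFs, here called MEF-high. In both groups the 11 pluripotent markers were above the MEF mean in all clones, and the 9 fibroblast markers with a symbol were below it in all clones. The 10-fold filter on these same arrays fixed that outcome for any marker with a symbol, so it does not check the cell type label. Where a gene had several probe sets, the one with the largest difference between MEFs and mouse embryonic stem cells (mESCs) stands for it.

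Ptn, Serpinf1 and Kitl, which were higher in OE + EpEX clones, were among the 5 named genes called whichever clone was left out, although the other probe set of Kitl was not called. Dazl, which was lower, is an example from the germ cell genes and was called in only 2 of the 8 fits with a clone left out. Their promoter windows, 250 bases before to 50 bases after the RefSeq start (build GRCm38.p6), are shown so that genes called in either direction can be set side by side, and they were not chosen by size alone. Capitals mark the TATA box letters TATAAA, searched on both strands.
Ptn: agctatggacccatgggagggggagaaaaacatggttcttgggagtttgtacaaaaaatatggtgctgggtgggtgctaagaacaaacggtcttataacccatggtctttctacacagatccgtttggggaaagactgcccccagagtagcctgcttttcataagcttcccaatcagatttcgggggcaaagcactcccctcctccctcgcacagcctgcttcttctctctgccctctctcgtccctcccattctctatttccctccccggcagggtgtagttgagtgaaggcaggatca
Serpinf1: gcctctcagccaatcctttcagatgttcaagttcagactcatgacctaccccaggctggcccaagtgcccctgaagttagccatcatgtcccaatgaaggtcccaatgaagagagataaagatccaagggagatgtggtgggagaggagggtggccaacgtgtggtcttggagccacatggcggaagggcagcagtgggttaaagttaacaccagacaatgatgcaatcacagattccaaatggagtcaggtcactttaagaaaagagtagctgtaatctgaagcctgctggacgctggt
Kitl: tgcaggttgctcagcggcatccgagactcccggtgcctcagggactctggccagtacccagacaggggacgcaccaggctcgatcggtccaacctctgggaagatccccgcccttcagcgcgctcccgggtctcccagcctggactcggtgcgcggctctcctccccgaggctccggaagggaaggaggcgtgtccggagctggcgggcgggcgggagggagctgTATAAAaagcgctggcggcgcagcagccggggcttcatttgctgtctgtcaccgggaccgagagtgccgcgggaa
Dazl: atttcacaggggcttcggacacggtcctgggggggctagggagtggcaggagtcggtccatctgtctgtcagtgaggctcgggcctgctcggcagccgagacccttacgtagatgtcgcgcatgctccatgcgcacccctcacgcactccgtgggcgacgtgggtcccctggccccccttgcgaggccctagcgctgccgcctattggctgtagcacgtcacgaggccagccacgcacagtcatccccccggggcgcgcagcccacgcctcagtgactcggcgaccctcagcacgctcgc
The windows lie at chr6:36810130-36810429 on the minus strand for Ptn, chr11:75422574-75422873 on the minus strand for Serpinf1, chr10:100015571-100015870 on the plus strand for Kitl and chr17:50293571-50293870 on the minus strand for Dazl. They hold 6, 3, 28 and 28 CpG dinucleotides, against a median of 7 over all 32851 RefSeq windows of this length. Of the 687 genes with a symbol, 481 had a window, with a median of 16 CpG. Of the called genes picked by the rule for naming, 20 had a window, with 21 windows in all. The STAT letters TTCNNNGAA were in 1 of 14 windows of the higher genes and 0 of 7 windows of the lower genes, and in 8.3% of all windows. The E-box CACGTG was in 0 of 14 and 1 of 7 of these windows and in 7.15% of all windows, and TATAAA was in 3 of 14 and 0 of 7 and in 13.6% of all windows. These letter matches are a description and do not show binding.

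In the fit of these 8 arrays, 1827 probe sets (4.06%) passed a limma adjusted p under 0.05 between OE + EpEX clones and OSKM clones, of which 1038 were higher and 789 lower in OE + EpEX clones. Most differences were small. Only 105 (0.233%) also reached 1 log2 unit, 58 higher and 47 lower, and the median difference over all probe sets was −0.02. The root mean square log2 difference between arrays of different groups exceeded that within groups by 0.0666 on average (one-sided exact permutation test, p = 0.0286, the smallest that the 35 distinct splits allow). Without 1 OSKM clone the excess was 0.0426 to 0.0514 with exact p-values from 0.0571 to 0.0857, and without 1 OE + EpEX clone it was 0.0755 to 0.0988 with p = 0.0286 (exact). OE + EpEX clones differed more among themselves, with pairs from 0.224 to 0.427 apart (median 0.321), than OSKM clones did, from 0.191 to 0.235 (median 0.202). Pairs across the groups had a median of 0.312, so 2 OE + EpEX clones were about as far apart as 2 clones of different groups. With a spread estimated over all 18 arrays, which lets the MEF, mESC and KE + EpEX (Klf4, EpCAM and EpEX) arrays into it, limma called 121 probe sets and 0 of the 948 listed ones, 104 of which had an unadjusted p under 0.05. No named gene below was called in that fit.

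More fibroblast probe sets were called higher than lower in OE + EpEX clones. Of the 471 MEF-high probe sets, 46 were called higher (9.77%, against 2.3% of all probe sets) and 1 lower, that of Sptbn1, a spectrin of the membrane skeleton. The median difference of the MEF-high probe sets was 0.22 log2, with an interquartile range from 0.04 to 0.49, and 367 of them (77.9%) lay above 0, compared with 43.9% of all probe sets. The values of the groups did not overlap, with all OE + EpEX clones higher, for 94 MEF-high probe sets, and with all lower for 6 (6.71% and 7.27% of all probe sets). Counted by gene, 31 of 326 MEF-high genes rose and 1 fell. The list holds only probe sets at least 10-fold below the MEF mean in each of these clones, so signals far below those of MEFs were fixed beforehand. Within that limit, the median MEF-high probe set was at 3.28% to 4.85% of the MEF mean in OE + EpEX clones and at 2.83% to 3.07% in OSKM clones. In RNA from whole cultures, fewer fibroblasts and less fibroblast RNA per cell cannot be told apart, and a part of feeder cells in the result was not tested. The 9 fibroblast markers had passed the same filter. Their summed signal was 1.38%, 1.18%, 1.92% and 3.21% of the MEF mean in OE + EpEX clones 1 to 4, and 1.09% to 1.21% in OSKM clones.

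**Figure D1:**
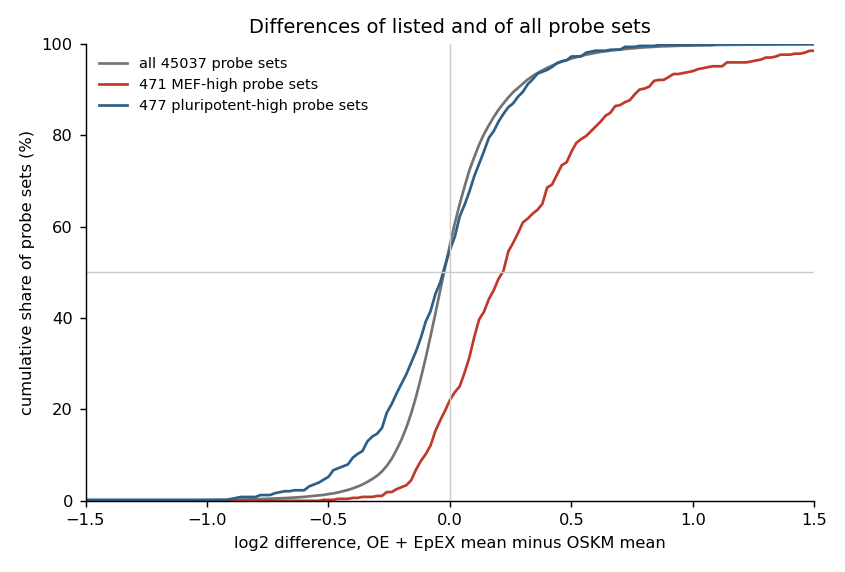
Cumulative share of probe sets (y axis, percent) against the log2 difference of the OE + EpEX mean minus the OSKM mean (x axis) for all 45037 probe sets, the 471 MEF-high and the 477 pluripotent-high ones. The MEF-high curve lies to the right, with its median at 0.22, while the pluripotent-high curve crosses 50% at −0.03, close to that of all probe sets at −0.02.

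Ptn had the largest difference of the genes with a symbol that were called. Ptn, which codes for the heparin-binding growth factor pleiotrophin, stood at 1.18, 0.65, 1.18 and 1.87 log2 in OE + EpEX clones 1 to 4 and at −1.20, −0.72, −1.15 and −1.47 in OSKM clones 1 to 4. Every OE + EpEX clone was above every OSKM clone, with clone 4 highest. The difference was 2.35 log2 (SE 0.236), or 5.11-fold (adjusted p = 0.0034). Both groups were below MEFs, as the filter of the list requires, at −5.52 log2 in OE + EpEX and −7.88 log2 in OSKM clones relative to the MEF mean. A further probe set of Ptn also rose, by 1.0 log2 (adjusted p = 0.038). Kitl, the ligand of the KIT receptor, was at 0.89, 0.12, 0.52 and 1.50 log2 in OE + EpEX clones and at −1.31, −0.99, −0.95 and −1.10 in OSKM clones. The groups were again apart, by 1.84 log2 (SE 0.242, adjusted p = 0.0067), although the other probe set of Kitl was 0.42 log2 higher with overlapping groups (adjusted p = 0.33). Cxcl1, a chemokine that draws neutrophils, was at 1.0, 0.16, 0.56 and 2.11 against −0.37, −0.16, −0.58 and −0.93. Its groups were apart by a narrow gap at OE + EpEX clone 2, and the difference of 1.47 log2 (SE 0.352, adjusted p = 0.048) was not called for its other probe set (0.51 log2, adjusted p = 0.1). Of the 21 secreted signal and immune genes of fibroblasts that had a symbol, 20 had a positive difference, but only Ptn and Cxcl1 were called, with a median of 0.25 log2 for the 21. Relative to the OSKM mean, their median was 0.23, 0.08, 0.37 and 0.70 log2 in OE + EpEX clones 1 to 4. Over all probe sets, 2.3% were called higher and 43.9% had a positive difference.

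**Figure D2:**
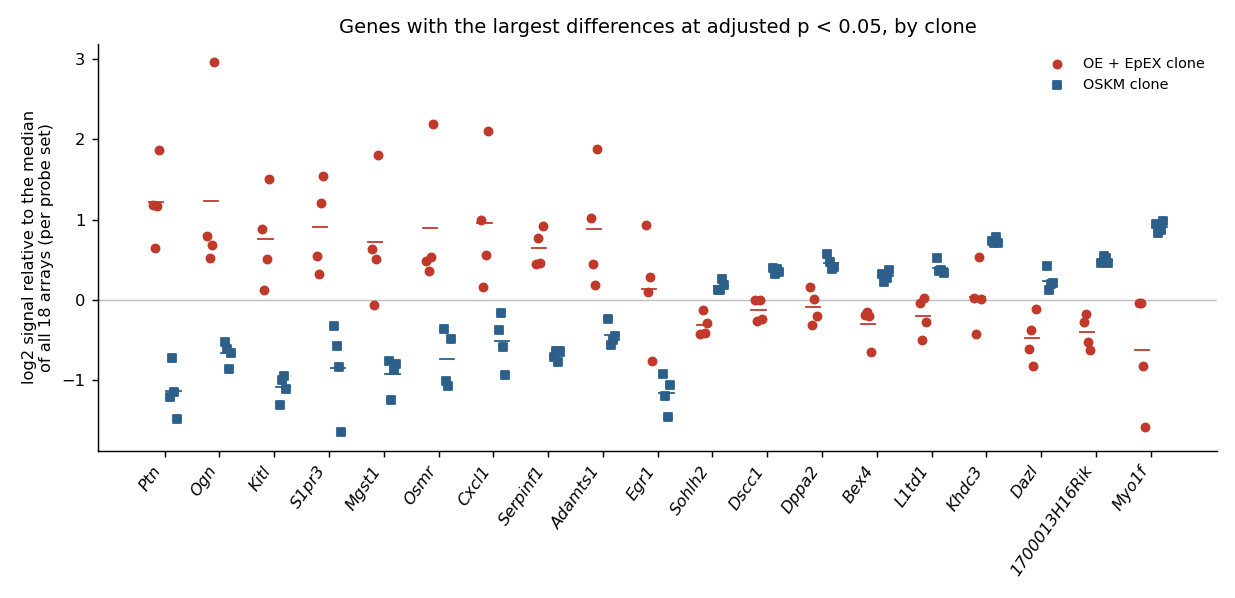
Log2 signal relative to the median of 18 arrays (y axis) of the 10 highest and 9 of the 10 lowest genes with an adjusted p under 0.05 (x axis), 1 point per clone, with OE + EpEX clones as circles, OSKM clones as squares and bars at the group means. The groups are apart for all 19 genes, which their choice by adjusted p and size in these same arrays made likely. Over all probe sets, the OE + EpEX clones were all higher for 6.71% and all lower for 7.27%. OE + EpEX clone 4 is highest for Ogn, at 2.96, and Osmr, at 2.19.

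Genes of the extracellular matrix formed the largest called group among the gene lists. Of 33 with a symbol, 7 rose and 0 fell (limma, unadjusted p under 0.05 for 15 higher and 0 lower), 29 had a positive difference and the median was 0.54 log2, compared with 2.3% of all probe sets called higher, 1.75% called lower and 43.9% with a positive difference. Relative to the OSKM mean, the list median was 0.26, 0.09, 0.50 and 0.98 log2 in OE + EpEX clones 1 to 4. OSKM clones ranged from −0.06 to 0.10, so clone 2 did not stand above all of them. Serpinf1, which codes for the secreted serpin PEDF, had the tightest values of them: 0.44, 0.78, 0.47 and 0.92 log2 in OE + EpEX clones and −0.71, −0.64, −0.77 and −0.64 in OSKM clones. The OE + EpEX clones were all higher, and within each group the clones lay close together. The difference was 1.34 log2 (SE 0.113, adjusted p = 0.003), and a further probe set rose by 0.83 log2 (adjusted p = 0.0052). Ogn, the small proteoglycan osteoglycin, had the largest difference of the list, 1.90 log2 (SE 0.449, adjusted p = 0.046). It rested in part on clone 4, at 2.96, with the other OE + EpEX clones at 0.53 to 0.79 and OSKM clones from −0.85 to −0.53. Its other probe set was 1.13 log2 higher (adjusted p = 0.16). Adamts1, a secreted metalloprotease, rose by 1.32 log2 (SE 0.3, adjusted p = 0.04), with OE + EpEX clones from 0.19 to 1.88 and OSKM clones from −0.56 to −0.24. Bgn, the proteoglycan biglycan, rose by 0.75 log2 (SE 0.155, adjusted p = 0.03). The other 3 called genes of the list, named after their values were seen, were the collagen VI chains Col6a2 (0.67 log2) and Col6a3 (0.62 log2) and the matrilin Matn2 (0.58 log2).

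The classic fibrillar collagens were not called. Col1a1 was at 0.18, 0.08, 0.29 and 1.62 log2 in OE + EpEX clones and from −0.40 to −0.08 in OSKM clones, a difference of 0.75 (adjusted p = 0.18). Col3a1 was at 0.27, −0.09, 0.96 and 2.67 against −0.38 to 0.09, a difference of 1.14 (adjusted p = 0.22). For both genes clone 4 lay far above the other OE + EpEX clones, and the values of Col3a1 overlapped between the groups. Postn, the matricellular protein periostin, had a negative difference of −0.36 log2 (adjusted p = 0.5).

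Among receptors, Pdgfra, S1pr3 and Osmr rose. Pdgfra, the receptor for platelet-derived growth factor found on mesenchymal cells, was at −0.07, −0.67, 0.07 and 0.19 log2 in OE + EpEX clones and at −1.40, −1.37, −1.21 and −1.03 in OSKM clones. Every OE + EpEX clone was higher, by 1.13 log2 on average (SE 0.172, adjusted p = 0.011), and the mESC mean, at 0.49, was above both groups. S1pr3, a receptor for sphingosine 1-phosphate, rose by 1.75 log2 (SE 0.316, adjusted p = 0.019), with OE + EpEX clones from 0.32 to 1.54 and OSKM clones from −1.65 to −0.32. Osmr, the oncostatin M receptor chain that pairs with the LIF receptor partner gp130, was at 0.48, 0.36, 0.53 and 2.19 against −0.36, −1.01, −1.07 and −0.48. The groups were apart, with clone 4 far above the other OE + EpEX clones, and the difference was 1.62 log2 (SE 0.367, adjusted p = 0.04). Pdgfrb and Egfr, also receptor kinases, had differences of 0.44 log2 (adjusted p = 0.085) and 0.65 log2 (adjusted p = 0.072) with no overlap between groups. Of the 7 fibroblast surface genes with a symbol, 1 was called, Pdgfra (2.3% of all probe sets were called higher), and the median was 0.44 log2. Relative to the OSKM mean, their median was 0.41, 0.09, 0.41 and 1.04 log2 in OE + EpEX clones 1 to 4, and 0.14 in OSKM clone 1.

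Egr1, a transcription factor that responds within minutes to growth factors, rose by 1.30 log2 (SE 0.289, adjusted p = 0.038), from −1.45 to −0.92 in OSKM clones to between −0.76 and 0.94 in OE + EpEX clones. The OE + EpEX values spread widely, with clone 1 highest and clone 4 lowest. The mESC mean, at 0.29, lay within the OE + EpEX range and above every OSKM clone. Mgst1, a membrane glutathione transferase, rose by 1.64 log2 (SE 0.318, adjusted p = 0.024).

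Regulators of mesenchymal identity were not called at their representative probe sets. Snai2, a repressor of epithelial genes, differed by 0.68 log2 (adjusted p = 0.11), Twist1 by 0.42 log2 (adjusted p = 0.22), Zeb2 by −0.15 log2 (adjusted p = 0.59) and the adhesion gene Cdh11 by 0.89 log2 (adjusted p = 0.09). In all 4 the groups overlapped. Of the 8 genes of this list 0 were called (limma, 3 higher and 0 lower at an unadjusted p under 0.05), with a median of 0.27 log2, and of 13 fibroblast transcription factors 0 were called (4 higher and 0 lower unadjusted), with a median of 0.17 log2. Over all probe sets 2.3% were called higher and 1.75% lower, so 0 calls in lists this short tell little. Nfix and Nr2f2, the members with the lowest p, differed by 0.78 log2 (adjusted p = 0.11) and 0.66 log2 (adjusted p = 0.11). The homeobox gene Prrx1, named after its values were seen, differed between its probe sets, with 1.46 log2 (adjusted p = 0.012) at 1 of them and 0.31 and 0.43 log2 (adjusted p = 0.42 and 0.26) at the others.

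The core pluripotency genes were not called. Nanog, a transcription factor of the naive state, was at 0.09, 0.26, 0.26 and 0.33 log2 in OE + EpEX clones and at 0.04, 0.01, −0.14 and −0.15 in OSKM clones. The groups did not overlap, but by a small margin, and the difference of 0.30 log2 (SE 0.084) had an adjusted p of 0.082. Sox2, a factor given to OSKM cells only, was at 0.02, −0.05, 0.36 and −0.15 log2 in OE + EpEX clones and at 0.14, 0.06, 0.02 and −0.07 in OSKM clones. The groups overlapped fully, with a difference of 0.01 log2 (SE 0.11, adjusted p = 0.97). Pou5f1, the gene of Oct4, was at 0.02, −0.17, 2.18 and −0.32 log2 in OE + EpEX clones and at 0.24, 0.23, 0.07 and −0.03 in OSKM clones. Clone 3 alone stood apart, and the mESC mean, at 5.65, was far above all 8 clones at this probe set. The study itself reports similar Oct4 levels in iPSCs and mESCs, by PCR of RNA and by Western blotting of protein. Why this probe set differs from those measures was not tested. Between OE + EpEX and OSKM clones the Pou5f1 difference was 0.30 log2 (SE 0.46, adjusted p = 0.77), and −0.28 without clone 3. Epcam, given to OE + EpEX cells only, was at 0.26, 0.09, 0.53 and 0.39 log2 against −0.15, −0.09, 0.09 and 0.11. The groups overlapped at OE + EpEX clone 2, with a difference of 0.33 log2 (SE 0.108, adjusted p = 0.12). Whether the probe sets of Pou5f1, Sox2 and Epcam read the transfected copies was not tested, and no symbol was at hand for Klf4 and Myc.

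**Figure D3:**
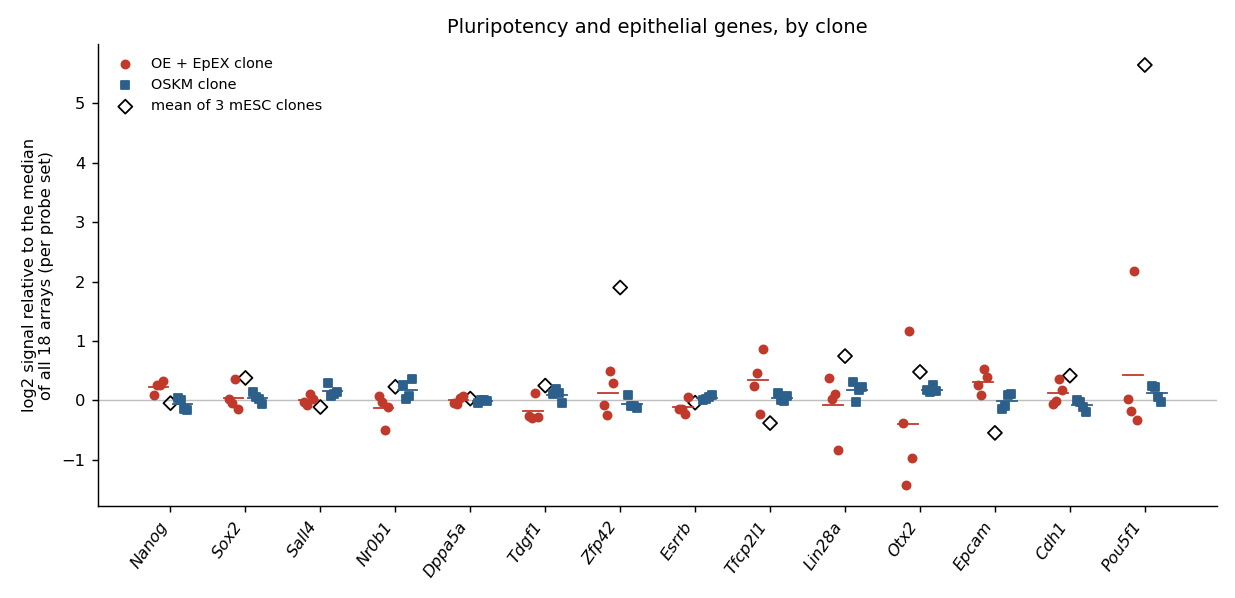
Log2 signal relative to the median of 18 arrays (y axis) of 14 pluripotency and epithelial genes (x axis), 1 point per clone, with circles for OE + EpEX, squares for OSKM, bars at the group means and open diamonds at the mean of 3 mESC clones. Most genes have both groups near 0, while OE + EpEX clone 3 is at 2.18 for Pou5f1 and 1.17 for Otx2.

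The other genes of the study's pluripotency set had adjusted p-values from 0.19 to 0.92. They were Sall4 (−0.14 log2), Nr0b1 (−0.31), Dppa5a (0.02), the co-receptor gene Tdgf1 (−0.27) and Zfp42 (0.18). Of the 8 genes of the set 0 were called (limma, 1 higher and 2 lower at an unadjusted p under 0.05), and the median was 0.02 log2. With 2.3% of all probe sets called higher and 1.75% lower, 0 calls among 8 genes tell little. Over all 477 pluripotent-high probe sets, 10 were called higher and 22 lower (4.61% lower, against 1.75% of all probe sets), and the median difference was −0.03 log2. By gene, 9 of 361 rose and 14 fell.

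Of 25 naive pluripotency and self-renewal genes, 1 rose and 2 fell, with a median of −0.10 log2, against 2.3% higher and 1.75% lower and a median of −0.02 over all probe sets. Fgf4, the growth factor that pluripotent cells secrete, was at 0.22, 0.53, 0.47 and 0.57 log2 in OE + EpEX clones and at −0.14, −0.22, −0.04 and 0.01 in OSKM clones, higher by 0.54 log2 with no overlap (SE 0.0962, adjusted p = 0.017). Dppa2, a chromatin-binding gene of early embryos, was at 0.16, −0.31, 0.02 and −0.20 log2 against 0.57, 0.48, 0.39 and 0.41. All OE + EpEX clones were lower, by 0.54 log2 on average (SE 0.108, adjusted p = 0.026), and a further probe set of the gene also fell (adjusted p = 0.018). The mESC mean, at −0.31, was below both group means, −0.08 in OE + EpEX and 0.46 in OSKM clones. L1td1, an RNA-binding protein gene derived from a transposon, fell by 0.60 log2 (SE 0.116, adjusted p = 0.024). Esrrb and Tfcp2l1, transcription factors of the naive network, differed by −0.16 log2 (adjusted p = 0.3) and 0.29 log2 (adjusted p = 0.44).

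All 6 formative and early epiblast genes with a symbol had a negative difference, with a median of −0.36 log2 (43.9% of all probe sets had a positive one), but 0 were called (limma, 0 higher and 1 lower at an unadjusted p under 0.05). Relative to the OSKM mean, the list median was −0.19, −0.47, −0.08 and −1.08 log2 in OE + EpEX clones 1 to 4. Clone 4 was thus by far the lowest. As 1.75% of all probe sets were called lower, 0 calls among 6 genes tell little. Dnmt3l and Dnmt3b, which act in DNA methylation, differed by −0.55 log2 (adjusted p = 0.18) and −0.46 log2 (adjusted p = 0.29), and Lin28a, an RNA-binding regulator of let-7, by −0.26 log2 (adjusted p = 0.56). Without clone 4 these differences were −0.31, −0.20 and −0.004 log2. Otx2, a transcription factor of the epiblast, was at −0.38, −1.43, 1.17 and −0.98 log2 in OE + EpEX clones and between 0.14 and 0.25 in OSKM clones. Clones 1, 2 and 4 were below every OSKM clone and clone 3 above, and the difference was −0.58 log2 (adjusted p = 0.5) with clone 3 and −1.11 log2 (adjusted p = 0.014) without it.

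Dazl and Sohlh2 fell among the germ cell genes. Of 13 with a symbol, 12 had a negative difference and 2 were called, with a median of −0.27 log2. Of all probe sets, 1.75% were called lower and 43.9% had a positive difference. Dazl, an RNA-binding protein gene of germ cells whose promoter window was CpG rich (above), was at −0.61, −0.38, −0.81 and −0.11 log2 in OE + EpEX clones and at 0.43, 0.13, 0.20 and 0.21 in OSKM clones. All OE + EpEX clones were lower, by 0.72 log2 on average (SE 0.141, adjusted p = 0.024), and its other listed probe set gave −0.73 log2 (adjusted p = 0.013). Sohlh2, a germ cell transcription factor gene, was at −0.42, −0.12, −0.41 and −0.29 against 0.12, 0.13, 0.27 and 0.19, a fall of 0.49 log2 (SE 0.087, adjusted p = 0.018). Its groups did not overlap either.

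Among the 10 epithelial genes, 1 was called higher, Dsp, and 1 lower, which is not reported here. Over all probe sets 2.3% were called higher and 1.75% lower. Dsp, the desmosome protein desmoplakin, was at 0.53, 0.50, −0.02 and 0.36 log2 in OE + EpEX clones and at −0.57, −0.25, −0.51 and −0.68 in OSKM clones. All OE + EpEX clones were higher, by 0.84 log2 (SE 0.136, adjusted p = 0.013), with the mESC mean above both at 1.23. Cdh1, which codes for E-cadherin, differed by 0.20 log2 (adjusted p = 0.32).

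Other genes among the lowest were of mixed roles. Myo1f, an unconventional myosin, was at −0.04, −0.03, −0.81 and −1.57 log2 in OE + EpEX clones and at 0.95, 0.83, 0.87 and 0.99 in OSKM clones, a fall of 1.53 log2 (SE 0.291, adjusted p = 0.022). All OE + EpEX clones were lower, clones 3 and 4 most. 1700013H16Rik was at −0.27, −0.17, −0.52 and −0.62 against 0.47, 0.55, 0.52 and 0.47, a fall of 0.90 log2 (SE 0.104, adjusted p = 0.0045) with the OSKM clones close together. Khdc3, Bex4 and Dscc1, which act in early embryos, in an X-linked gene family and in sister chromatid cohesion, fell by 0.70, 0.59 and 0.49 log2 (adjusted p = 0.046, 0.022 and 0.016). For Khdc3 the mESC mean, at −0.11, was below both group means, 0.04 in OE + EpEX and 0.73 in OSKM clones.

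Of the 4 imprinted genes with a symbol 0 were called, nor was the trophoblast gene Tfap2c (0.35 log2, adjusted p = 0.21), the contractile list's Cyr61 (0.83 log2, adjusted p = 0.12) or any of the 3 Y-linked and X inactivation genes. With 2.3% of all probe sets called higher and 1.75% lower, the lack of calls in such short lists tells little. Phlda2 and Ddc, the imprinted genes with the lowest p, differed by 0.41 log2 (adjusted p = 0.34) and −0.49 log2 (adjusted p = 0.14). Ddx3y and Eif2s3y, Y-linked genes, differed by −0.13 log2 (adjusted p = 0.45) and −0.27 log2 (adjusted p = 0.12). At an unadjusted p under 0.05, limma gave 1 lower imprinted gene, 1 lower gene of the Y-linked and X inactivation list, and 1 higher gene in each of the lists of Tfap2c and Cyr61. No germ layer marker of the list had a symbol.

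Most of the array carried no symbol here, and 4 such called probe sets, the 2 lowest and the 2 highest, were picked by the rule for naming. 1436227_at was at −1.79, −1.94, −0.42 and −2.23 log2 in OE + EpEX clones and at 1.40, 1.56, 2.05 and 1.72 in OSKM clones, a difference of −3.28 log2 (SE 0.332, adjusted p = 0.0034), with the mESC mean at 2.02. 1419082_at was at −0.33, −0.12, −0.10 and 0.03 against 2.08, 2.77, 1.81 and 1.74, a difference of −2.23 log2 (SE 0.2, adjusted p = 0.003). Here the OE + EpEX clones lay beside the mESC mean of −0.09 and the OSKM clones stood above both. These 2 probe sets were also called in the fit of all 18 arrays (adjusted p = 0.042 and 0.047). The highest without a symbol were 1448162_at, at 2.11 log2 (adjusted p = 0.011), and 1427183_at, at 1.83 log2 (adjusted p = 0.02).

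The OE + EpEX clones differed in how far they stood from OSKM clones. Counted against the mean of every 3 OSKM clones and averaged, 308 probe sets of clone 1, 420.5 of clone 2, 470.5 of clone 3 and 1214 of clone 4 were at least 1 log2 unit away, and 0 to 10 of a single OSKM clone were that far from the other 3. In clone 4, 970 of the 1214 were higher. The MEF-high probe sets had a median shift of 0.17, 0.07, 0.12 and 0.52 log2 in OE + EpEX clones 1 to 4 and of −0.02 to 0.07 in OSKM clones, with clone 2 (0.0678) and OSKM clone 1 (0.0652) side by side. At least 1 log2 unit higher were 30, 9, 22 and 116 of the 471 MEF-high probe sets in OE + EpEX clones 1 to 4. Without clone 4 the median difference between the groups was 0.11 log2 in place of 0.22, and 52 MEF-high probe sets were called, 44 of them among the 47 called with it. The pluripotent-high probe sets had medians from −0.07 to 0.02 in OE + EpEX clones and from −0.03 to 0.04 in OSKM clones.

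**Figure D4:**
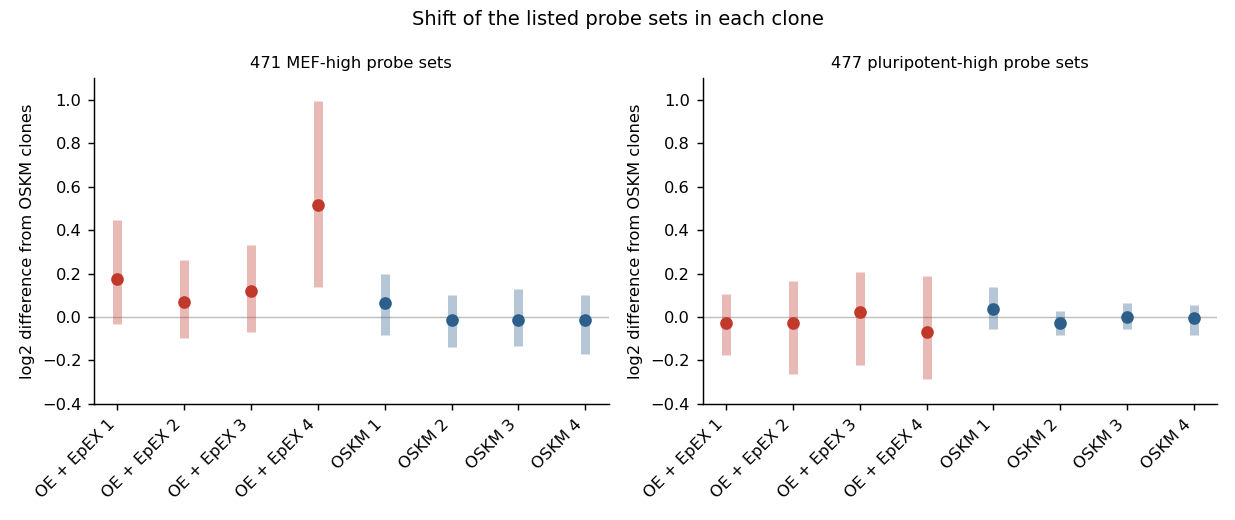
Median (point) and interquartile range (bar) of the log2 difference (y axis) of each clone (x axis) from OSKM clones, an OSKM clone being set against the other 3, for 471 MEF-high (left) and 477 pluripotent-high probe sets (right). OE + EpEX clone 4 has a MEF-high median of 0.52, the other OE + EpEX clones 0.07 to 0.17, and the pluripotent-high medians stay within 0.07 of 0.

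Each OE + EpEX clone had its own genes far from the other 3. In clone 4 they were Col3a1, Ogn and Ptx3, a secreted pattern recognition protein gene, which lay 2.29 log2 above the mean of the other 3 clones, and Gm7325 and the amino acid transporter gene Slc7a3, which lay 1.50 and 1.39 log2 below it. In clone 3, Pou5f1, Otx2 and Dcn, the proteoglycan decorin, were 2.34, 2.10 and 1.43 log2 above, while Gm8267, Vgll3 and the myelin gene Pmp22 were lower. Gm8267 was at −1.87 in clone 3 and at 0.49 to 0.52 in the others. In clone 2 the genes furthest above were Dleu7, Slc7a3 and Gm8267 (0.81 to 1.0 log2), and those furthest below were Il1rl1, the receptor of interleukin 33, Emp3 and Flrt2 (1.49 to 1.61 log2 under the other 3). In clone 1 Id3, Egr1 and Pmp22 were 0.94 to 1.15 log2 above, and Dppa3, Cxcl5 and Col3a1 were 0.91 to 1.14 log2 below. Apart from Ogn and Egr1, none of these genes was called between the groups.

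The number of calls depended on which clone was in the fit. It was 1169, 859, 2898 and 2219 without OE + EpEX clones 1 to 4, and 738, 423, 508 and 420 without OSKM clones 1 to 4. The MEF-high probe sets called higher numbered 24, 39, 73 and 51 without OE + EpEX clones 1 to 4, and 14, 10, 10 and 10 without OSKM clones 1 to 4. Of the pluripotent-high probe sets, 16, 12, 37 and 36 were called lower without OE + EpEX clones 1 to 4, and 7, 2, 4 and 3 without OSKM clones 1 to 4. Ptn, Kitl, Serpinf1, Pdgfra and 1700013H16Rik were called whichever clone was left out, with adjusted p-values of at most 0.022, 0.035, 0.018, 0.046 and 0.026. Dsp was called in 7 of the 8 fits, missing without OSKM clone 4 (adjusted p = 0.0504). S1pr3, Fgf4, Dscc1 and Sohlh2 were called in 5 of the 8 fits, with adjusted p-values up to 0.061, 0.064, 0.057 and 0.064 without an OSKM clone. Mgst1, Bgn, Myo1f, L1td1 and Bex4 were called in 4, being lost without any 1 of the 4 OSKM clones (adjusted p up to 0.081, 0.096, 0.077, 0.07 and 0.078). Cxcl1 and Dppa2 were called in 3, Adamts1, Ogn, Osmr and Dazl in 2, and Egr1 and Khdc3 in 1. All 8 were lost without any 1 of the OSKM clones, with adjusted p-values up to 0.14. Of the named genes that were not called with all clones, 15 were called in at least 1 of the 8 fits, 9 higher and 6 lower. Without OE + EpEX clone 3 these were Pmp22, Phlda2, Egfr, Nr2f2, Fstl1, Snai2, Vgll3 and Pdgfrb, which were higher (adjusted p from 0.0099 to 0.046), and Otx2, Tdgf1 and Eif2s3y, which were lower (adjusted p = 0.014, 0.029 and 0.043). Without clone 4 they were Fstl1 and Ptx3, higher (adjusted p = 0.021 and 0.036), and Ddc and Gm7325, lower (adjusted p = 0.012 and 0.017). Without clone 1 it was Id3, lower (adjusted p = 0.028), and without clone 2 or any OSKM clone there was 0. Every gene named here for a call had the same sign in all 8 fits.

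**Figure D5:**
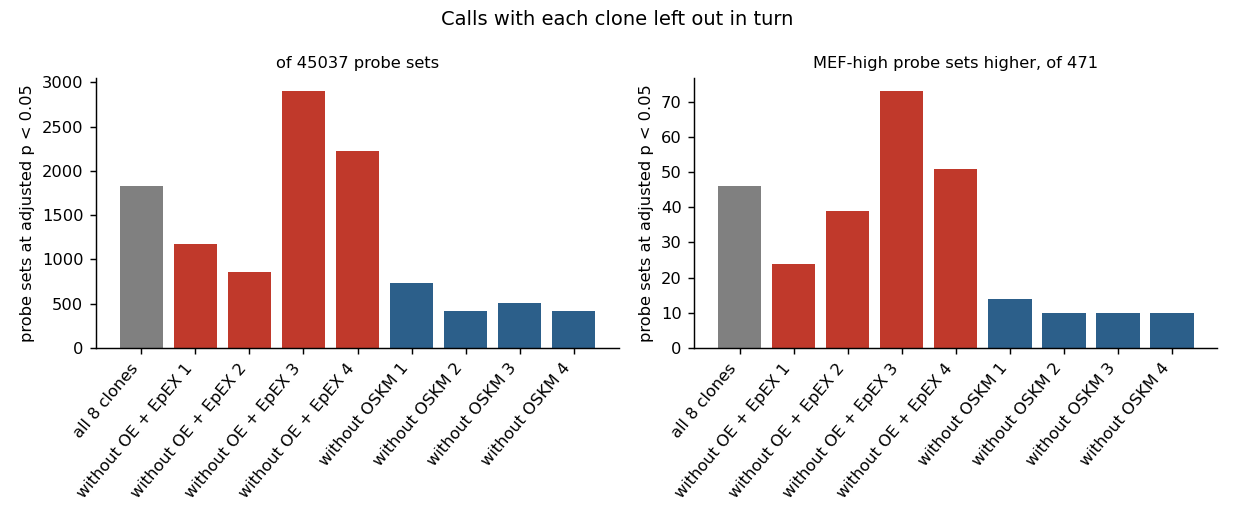
Number of probe sets with a limma adjusted p under 0.05 (y axes) with all 8 clones (grey) and without each clone in turn (x axes), for all 45037 probe sets (left) and for MEF-high probe sets higher in OE + EpEX (right). The counts range from 420 to 2898 on the left and from 10 to 73 on the right, and are lowest without an OSKM clone.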

How the data were processed

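RNA was measured on Affymetrix mouse arrays, 1 for each of 18 samples, of which the 4 OE + EpEX and 4 OSKM arrays were compared. Groups and clone numbers were taken from the labels. The labels name Trizol and biotin, while the methods name RNeasy, Cy3 and GeneSpring GX. The submitters' processing notes name MAS5 and RMA without a role. The values that the authors deposited are on a log2 scale and centred on the median over the 18 arrays for each probe set, so that brightness and detection are unknown. Precision is limited by the number of arrays and by the spread between clones. The lists of the authors also hold their fold ratios to the MEF mean, of which only the probe set and symbol columns were used. No columns were left unmapped.

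Differences were tested with the two-sided moderated test of limma 3.58.1 under R 4.3.3 (lmFit and eBayes, defaults) on the 8 arrays, with Benjamini-Hochberg adjustment over 45037 probe sets. A probe set was called at an adjusted p under 0.05, with no fold threshold. The members and gene lists were chosen with earlier results of these data known. Named were genes always followed (core pluripotency, epithelial and fibroblast genes), up to 4 called members of each list or the 2 with the lowest p, the 10 highest and 10 lowest called genes, the 3 genes furthest above and below in each OE + EpEX clone, and the 2 highest and 2 lowest called probe sets without a symbol. Of 948 listed probe sets, 27 carried several symbols and 17 none. No 2 arrays held identical values. On simulated data of this comparison with 45037 probe sets, limma recovered 90 of 100 changes of 1 log2 and 100 of 100 of 2 log2, with 10 false calls. The simulated noise was independent between probe sets and had the same spread in both groups. It lacked the wider spread of OE + EpEX clones and shifts shared by many probe sets. The simulation therefore does not give the recovery or the false calls for the real clones. Promoter windows came from RefSeq (GRCm38.p6). Python 3.11.15, pandas 2.3.3, numpy 2.4.6, scipy 1.17.1 and matplotlib 3.10.9 were used for other steps. The alternatives tried were other call thresholds, quantile normalization, centring of each array, eBayes options, arrayWeights, all 18 arrays in the fit, the more variable probe sets, the methods' unpaired test, the replicate number as a block, other distances, and leaving out each clone. A few genes that the naming rule picked are not reported here.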

Additional observations from a re-analysis of the deposited data

Results flagged for a closer look

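A clone was picked out where its gap to the nearest clone of its group exceeded the 95% critical value of Dixon's test for 4 samples. Of 150 groups of values tested, 13 had such a clone. Chance alone picks about 1 in 20 groups, but the count cannot be read against that, because some of the genes were named for having 1 OE + EpEX clone far from the other 3, among them Ogn, Pou5f1 and Gm8267. OE + EpEX clone 4 was far from the other 3 clones for Bex4, at −0.644 log2 against −0.19 to −0.15, for Col1a1, at 1.62 against 0.08 to 0.29, for Ogn, at 2.96 against 0.53 to 0.79, and for Osmr, at 2.19 against 0.36 to 0.53. OE + EpEX clone 3 was far from the others for Gm8267, at −1.87 log2 against 0.49 to 0.52, for Pou5f1, at 2.18 against −0.32 to 0.02, and for Tdgf1, at 0.13 against −0.30 to −0.26.

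The OSKM clones so picked out lay closer to their group. OSKM clone 1 was at −0.525 log2 for Fstl1 against −0.74 to −0.71, at 0.0931 for Zfp42 against −0.13 to −0.09, and had a median shift of the MEF-high probe sets of 0.0652 against −0.0159 to −0.013. OSKM clone 2 was at −0.249 for Cxcl5 against −0.05 to −0.04. OSKM clone 3 was at −0.396 for Dcn against −0.03 to 0.04, and at 1.33 for Dnmt3l against 1.18 to 1.20.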

How the results depend on the processing

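With 4 clones per group and centred values, neither brightness nor detection could be used, and the count of calls moved strongly. In each group of numbers that follows, the order is all probe sets (1827 in the report), those with 1 symbol (76), the listed ones (79), MEF-high called higher (46), pluripotent-high called lower (22) and genes of the gene lists (17). The eBayes trend and robust options gave 1157, 49, 51, 32, 9 and 10, and arrayWeights gave 3373, 124, 129, 71, 40 and 30. All 18 arrays in the fit gave 121, 0, 0, 0, 0 and 0. The methods' t-test gave 385, 11, 12, 5, 5 and 2 after Benjamini-Hochberg adjustment and 8240, 224, 231, 104, 68 and 43 at its threshold without it. A difference of at least 1 log2 unit left 105, 19, 20, 19, 1 and 6, and of at least 1.5-fold left 738, 50, 51, 40, 7 and 12. An adjusted p under 0.01 left 195, 6, 7, 6, 1 and 2. Quantile normalization raised the genes of the gene lists to 26. With 1 clone left out the ranges were 420 to 2898, 13 to 129, 14 to 131, 10 to 73, 2 to 37 and 4 to 27, and the profile distance of 0.0666 ranged from 0.0426 to 0.0988.

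The replicate number as a block gave 776, 43, 44, 27, 9 and 12 calls. Clones with the same number deviated together no more than others did (r from −0.0025 to 0.0776, against −0.105 to 0.0932 for different numbers). The labels do not state that the numbers pair the samples, and these values cannot exclude it.

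Among the named genes, signs turned in 5, none of them called with all clones. With arrayWeights, Dppa5a was at −0.0104. With 1 clone left out, Dppa5a ranged from −0.0066 to 0.0385, Sox2 from −0.092 to 0.077, Pou5f1 from −0.28 to 0.55, Gm8267 from −0.53 to 0.27 and Il1rl1 from −0.41 to 0.35. The cause was not tested.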
